A study of Mus musculus with 2 samples.

Results

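The mitochondrial carrier family was followed in mouse kidney through 50 genes, the symbols of the deposited count table that begin with Slc25a and a number together with Ucp1, Ucp2 and Ucp3. Of several gene models with 1 symbol the one with the highest summed count was kept, which left 50 of 51 models. The table holds 30744 symbols in all. Of the 50 members, 44 had at least 20 reads over both libraries and were taken as measured, as were 16326 genes of the whole table.

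The series compares 1 library from a normal kidney, labelled WT and given no doxycycline, with 1 library from a tumour of the kidney, with the genotype Tet-OSKM/mPer2-luc and doxycycline given. In the tumour animal doxycycline switches on the reprogramming factors Oct4, Sox2, Klf4 and c-Myc through the M2rtTA activator at Rosa26, and mPer2-luc marks a luciferase reporter for Per2, a gene of the circadian clock. Both labels give a C57BL/6 x DBA/2 F1 background, and the protocol given with both libraries describes chimeric embryos made by injecting embryonic stem cells with these transgenes into blastocysts. A chimera holds host cells too. Whether the normal kidney came from a chimera, the share of transgenic cells in the tumour, the time of day, the age and the sex of the animals do not stand in the labels. With 1 library per group no test between the conditions is possible, so every difference below compares these 2 libraries and has no replicate check.

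Proteins of the Slc25 family sit in the inner mitochondrial membrane, with a few in the outer membrane or in peroxisomes, and exchange nucleotides, phosphate, carboxylates, amino acids, cofactors and metal ions between the matrix and the cytosol. The fold of the family is built from repeats of a pair of membrane helices. Tubule cells of the kidney are rich in mitochondria, since the reabsorption of sodium and solutes is paid for with ATP that leaves the matrix through ADP/ATP carriers. Uncoupling proteins belong to the same family, and the founding member lets protons back into the matrix of brown fat cells to release heat.

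Carrier transcripts were lower in the tumour library for most members. Members together held 137542 reads in the normal library, 0.470% of its counted reads (exact Clopper-Pearson 95% interval 0.468% to 0.473%), and 39927 reads in the tumour library, 0.192% (0.190% to 0.194%). Reads were put on a common scale with TMM, a library scaling that assumes most genes do not differ. A gene was called lower or higher where it differed at least 2-fold and the 95% interval of the ratio, for counting error, left out 1. By this rule 26 of the 44 measured members (59.1%) were lower and 4 (9.09%) were higher, against 28.0% of all measured genes lower and 31.2% higher. The other 14 were neither. In all 59.2% of measured genes were called, so the calls themselves do not meet the assumption of TMM, and the counts depend on the scale. With counts scaled by the library's counted reads alone, 22 members were lower and 6 higher. Of the 16326 measured genes 3297 were then lower and 6876 higher. The median log2 ratio, tumour over normal, was -1.56 over the members and 0.08 over all measured genes. In bulk tissue, fewer cells of a type and less RNA per cell cannot be told apart.

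Larger differences were also mostly downward. At least 4-fold lower were 17 members (38.6%), against 15.8% of all measured genes, and at least 8-fold lower were 9 members (20.5%), against 9.16%. A single member, Slc25a31, was more than 4-fold higher, and it was also more than 8-fold higher, where 18.5% and 12.2% of all measured genes were. The difference between members and all genes varied with level. Among the 21 members with a mean RPKM (deposited reads normalised to transcript length and library total) over 10, 17 were lower and 0 higher, where 33.9% of all genes at that level were lower and 26.4% higher. Among the 18 members between 1 and 10, 8 were lower and 2 higher, against 26.1% and 27.4% of all genes. Of the 5 members under 1, Slc25a29 was lower and Slc25a31 and Slc25a53 were higher, against 23.4% and 46.1%. The bands were cut on the mean of the same 2 libraries, so level and direction are not independent. Slc25a10, for example, is over 10 only through the normal library (65.8 and 3.99 RPKM).

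**Figure D1:**
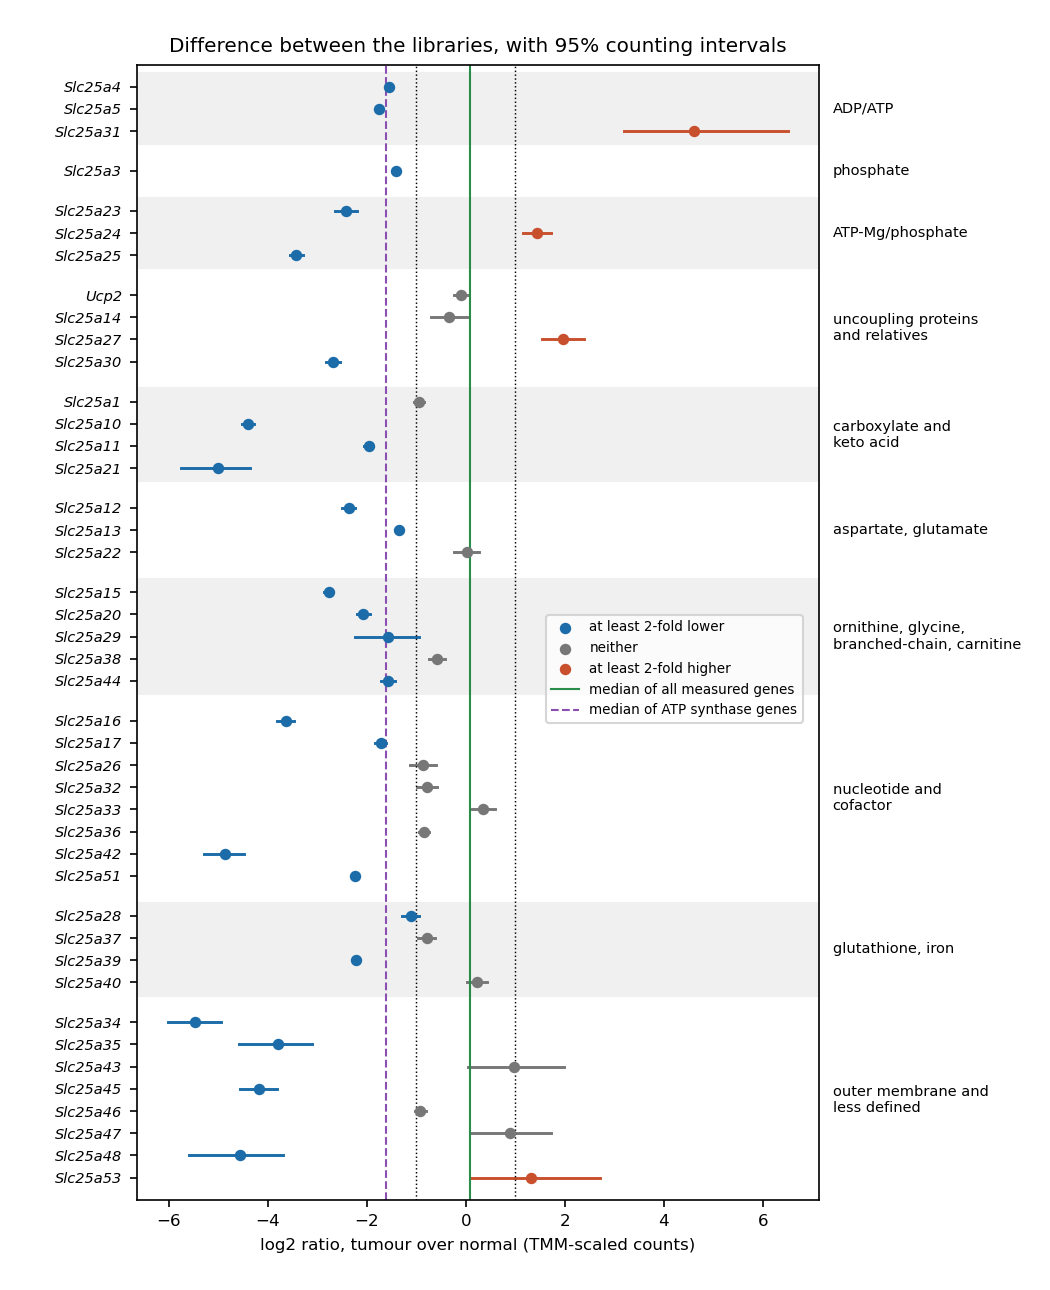
Log2 of tumour over normal TMM-scaled counts (horizontal axis), for 43 measured carriers grouped by role; bars are 95% intervals for counting error from 1 library per group, the green line is the median of all measured genes (0.08) and the dashed line that of ATP synthase genes (-1.61). Points left of the dotted line at -1 are at least 2-fold lower (25 members), those right of 1 at least 2-fold higher (4 members), and Ucp2 and Slc25a14 lie just below 0 on this scale but above 0 with plain CPM, header totals or RPKM.

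Markers of other cell types differed between the libraries as well. All 8 proximal tubule markers were lower in the tumour library, with a summed level of 3561 RPKM in the normal and 50.05 RPKM in the tumour library, and so were all 6 markers of the thick ascending limb and distal tubule, at 1531 and 13.2 RPKM, with Pvalb at 0 reads in the tumour. The 7 pluripotent cell markers summed to 0.0183 RPKM in the normal and 835 RPKM in the tumour library. In the normal library Dppa5a, Pou5f1, Sox2, Utf1 and Zfp42 had 0 reads. Pou5f1 (Oct4) and Sox2, at 254 and 46.9 RPKM in the tumour, are also factors that doxycycline switches on there. Reads of the transgenes and of the animal's own genes were not told apart, so the sum does not measure pluripotent cells alone. Germ line markers (6 of 6 higher, 0.218 and 26.1 RPKM), neuronal markers (7 of 7 higher, 1.12 and 41.3 RPKM) and macrophage and leukocyte markers (4 of 6 measured higher, 20.6 and 144.6 RPKM) were also higher in the tumour. Erythroid markers were lower for 5 of 5 measured (213 and 88.0 RPKM), striated muscle markers higher for 5 of 6 (3.49 and 8.62 RPKM), adipocyte markers higher for 2 and lower for 1 of 3 (34.5 and 20.6 RPKM), and hepatocyte and yolk sac markers lower for 4 and higher for 1 of 6 (154 and 8.63 RPKM). Gene models of the mitochondrial chromosome took 10.6% of the normal and 1.22% of the tumour reads (exact intervals 10.61% to 10.63% and 1.216% to 1.226%). The part of these shifts in the carrier values was not tested.

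ADP/ATP carriers and the phosphate carrier bring ADP and phosphate to ATP synthase and send ATP out, and Slc25a5, Slc25a3 and Slc25a4 were the 3 most abundant members in both libraries. Slc25a5 (chromosome X, 36795652 to 36798806 on mm10), the ADP/ATP carrier of growing and most other cells, stood at 452 RPKM in the normal and 171 RPKM in the tumour library, the highest carrier level in each. It was 3.37-fold lower in the tumour (3.28 to 3.47). Its count is uncertain, because 46.6% of the 50-base stretches of its GENCODE M21 transcripts also occur in transcripts of other genes, 9 in number, and the labels and headers do not say how reads with several matches were treated. Slc25a4 (chromosome 8, 46207341 to 46211009), the form that predominates in heart and skeletal muscle, was at 218 and 94.8 RPKM, 2.94-fold lower (2.83 to 3.06). None of its 50-base stretches occurred in GENCODE M21 transcripts of other genes. Slc25a3 (chromosome 10, 91116578 to 91123963), the carrier that imports phosphate and also copper, was at 253 and 122 RPKM, 2.66-fold lower (2.58 to 2.74). With plain CPM (counts scaled by the library's counted reads alone, without the TMM factor) the log2 ratios of Slc25a4 and Slc25a3 were -0.997 and -0.85, short of 2-fold.

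Slc25a31 (chromosome 3, 40708871 to 40726094), the ADP/ATP carrier of male germ cells that is also made in embryonic stem cells, went the other way. Normal kidney gave 4 reads and the tumour 102, 24.3-fold higher (9.22 to 91.0), from 0.0470 to 1.46 RPKM. Even so it made up little of the ADP/ATP carrier transcripts of the tumour, where Slc25a5 alone held 64.0% of their summed RPKM, compared with 67.4% in the normal library. The germ line markers beside it were Dazl at 0.00838 and 10.7 RPKM, Ddx4 at 0.0525 and 1.82 RPKM and Sycp3 at 0.0889 and 7.75 RPKM. All 7 pluripotent cell markers were higher too, among them Nanog at 0.0112 and 61.5 RPKM. The part of either cell type in the value of Slc25a31 was not tested. Slc25a31 was higher, and Slc25a5 and Slc25a4 had ratios below 0, under every scaling tried.

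The promoters of the 3 ADP/ATP carriers are shown because these paralogues differed in direction. That of Slc25a34, the carrier with the largest estimated difference on the lower side, is set beside them. The sequences are the 200 bases before the RefSeq start on GRCm38.p6, written 5′ to 3′ on the strand of the gene. Capitals mark CG pairs and matches to 5 motifs searched on both strands, the E-box CACGTG, the ETS motif CCGGAAG, the NRF1 core GCATGCG, the estrogen-related receptor (ERR) element AAGGTCA and the E2F motif TTCCCGC. Positions are chr8:46211063-46211262 (minus strand) for Slc25a4, chrX:36795397-36795596 (plus) for Slc25a5, chr3:40708671-40708870 (plus) for Slc25a31 and chr4:141623835-141624034 (minus) for Slc25a34. The RefSeq starts of Slc25a4 and Slc25a5 lie 53 and 55 bases from those of the deposited models.
Slc25a4: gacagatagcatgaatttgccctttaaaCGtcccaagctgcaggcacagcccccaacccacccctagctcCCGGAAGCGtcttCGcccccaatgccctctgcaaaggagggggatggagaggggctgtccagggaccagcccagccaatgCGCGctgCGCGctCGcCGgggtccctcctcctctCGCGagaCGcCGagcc
Slc25a5: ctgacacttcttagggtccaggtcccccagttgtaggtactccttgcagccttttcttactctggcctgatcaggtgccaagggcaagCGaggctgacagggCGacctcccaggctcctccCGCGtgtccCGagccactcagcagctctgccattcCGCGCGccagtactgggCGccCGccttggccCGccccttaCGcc
Slc25a31: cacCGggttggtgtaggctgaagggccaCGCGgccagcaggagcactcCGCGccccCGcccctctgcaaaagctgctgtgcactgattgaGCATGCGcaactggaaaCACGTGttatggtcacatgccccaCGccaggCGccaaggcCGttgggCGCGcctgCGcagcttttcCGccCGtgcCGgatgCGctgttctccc
Slc25a34: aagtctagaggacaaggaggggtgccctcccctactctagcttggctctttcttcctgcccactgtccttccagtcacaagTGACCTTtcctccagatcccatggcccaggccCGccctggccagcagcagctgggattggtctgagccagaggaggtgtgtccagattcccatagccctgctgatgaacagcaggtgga
The Slc25a4 stretch holds 14 CG pairs and an ETS match, the Slc25a5 stretch 12 CG pairs and none of the motifs, and the Slc25a31 stretch 18 CG pairs, an NRF1 core and an E-box. The Slc25a34 stretch holds 1 CG pair and an ERR element.

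Over the full windows of RefSeq, which run from 250 bases before to 50 after a start, 35 of the 44 measured members had an entry. Their median was 19 CG pairs, against 7 over all 32851 windows. The 2 sets are unlike, since members had 1 window per measured gene. The full set holds more than 1 start for some genes and also genes without reads here. The same holds for the motif shares below, and a set of measured genes alone was not compared. The 22 lower members had a median of 17.5 (1 to 45), the 10 that were neither 19 (7 to 47) and the 3 higher members 19 (19 to 22), so the ranges overlapped. ETS matches stood in 6 of the 35 windows (17.1%, against 8.86% of all windows), of which 5 belonged to lower members, and E-boxes also in 6 (17.1% against 7.15%), of which 4 belonged to members that were neither. The NRF1 core (1 of 35, against 3.58% of all windows), the ERR element (1, against 4.72%) and the E2F motif (2, against 4.60%) were rare. A match describes the letters and not binding.

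The calcium-regulated carriers that exchange ATP-Mg for phosphate, and so set the adenine nucleotide pool of the matrix, moved in opposite directions. Slc25a25 (chromosome 2, 32414487 to 32451470) was at 39.9 RPKM in the normal and 4.76 RPKM in the tumour library, 10.7-fold lower (9.79 to 11.7). Slc25a23 was at 7.69 and 1.83 RPKM, 5.35-fold lower (4.60 to 6.25). Slc25a24 (chromosome 3, 109123149 to 109168409), by contrast, had 148 and 419 reads, or 1.09 and 3.75 RPKM, and was 2.70-fold higher (2.23 to 3.28). In the normal library Slc25a24 was the lowest of these 3 genes per length, and in the tumour it stood between Slc25a25 and Slc25a23. The fourth gene of the group, Slc25a41, had 0 and 5 reads and was not measured.

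The uncoupling proteins and their relatives gave no common direction. Ucp1, the protein of brown fat thermogenesis, had 0 reads in both libraries (which allows a level of up to 0.124 CPM for the normal library and 0.119 CPM for the tumour, for counting error only), and Ucp3, the muscle form, had 1 and 2 reads. Ucp2, the widely made form, had 868 and 855 reads and a log2 ratio of -0.09, and its interval spanned equality, and its sign turned with plain CPM (0.47), header totals (0.26) and RPKM (0.26). By RPKM, which is scaled by header totals, Ucp2 stood at 13.7 in normal kidney and 16.4 in the tumour, where it moved from place 20 to place 9 among the members. Ucp2 is also known from macrophages, and of the 6 measured markers of macrophages and leukocytes Lyz2 (7.83 and 113 RPKM), Cd68 (1.24 and 12.9 RPKM), Adgre1 (1.55 and 5.46 RPKM) and Itgam (0.250 and 4.70 RPKM) were higher. Ptprc (1.73 and 2.62 RPKM) and Csf1r (7.97 and 5.39 RPKM, log2 ratio -0.92) were neither, and the part of these cells in the Ucp2 value was not tested.

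Slc25a30 (chromosome 14, 75761999 to 75787037), first described as a kidney mitochondrial carrier, was at 45.9 and 9.14 RPKM, 6.41-fold lower (5.84 to 7.05). Slc25a27 (chromosome 17, 43641900 to 43667015), known for its place in the brain and also called Ucp4, had 59 and 240 reads, from 0.545 to 2.70 RPKM, and was 3.88-fold higher (2.91 to 5.25). All 7 neuronal markers were higher as well, among them Stmn2 at 0.195 and 12.3 RPKM and Tubb3 with 0 reads in the normal library and 18.2 RPKM in the tumour, and their part in the value of Slc25a27 was not tested. Slc25a14, the other brain-enriched relative, had 146 and 121 reads, and its interval spanned equality, with a log2 ratio of -0.34 that became 0.22 with plain CPM.

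**Figure D2:**
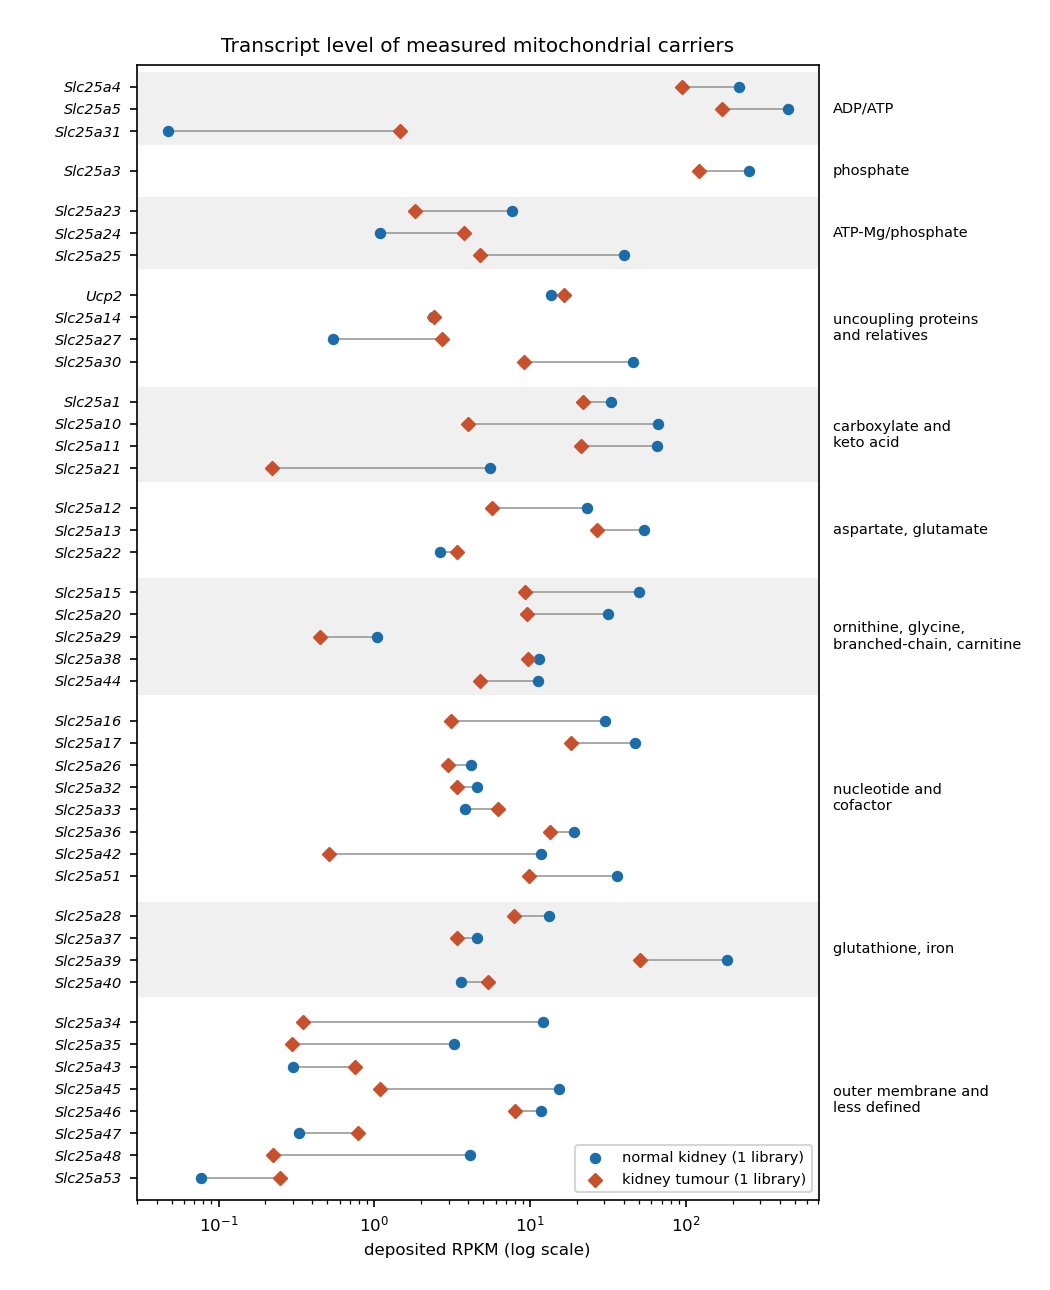
Deposited RPKM (horizontal log axis) of 43 measured carriers in the normal kidney (circles) and kidney tumour (diamonds), 1 library each, grouped by role. Slc25a5, Slc25a3 and Slc25a4 are the 3 highest in both libraries. Among the members that lie further right in the tumour library are Slc25a31, Slc25a24 and Slc25a27, and by smaller steps others such as Ucp2 and Slc25a33.

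Carriers of carboxylates, which link the citrate cycle to the cytosol, differed widely in size. Slc25a10 (chromosome 11, 120491837 to 120501161), the exchanger of malate and succinate for phosphate, was at 65.8 RPKM in the normal and 3.99 RPKM in the tumour library, 21.0-fold lower (19.3 to 23.0). It stood at place 5 of the members in the normal library and at place 24 in the tumour. Slc25a11, the exchanger of oxoglutarate for malate, was at nearly the same normal level, 64.8 RPKM, and at 21.2 RPKM in the tumour, 3.90-fold lower (3.67 to 4.15). Slc25a21 (chromosome 12, 56712634 to 57197472), the carrier of oxoadipate from lysine and tryptophan breakdown, had 584 and 19 reads, 32.2-fold lower (20.4 to 53.9). Slc25a1, which exports citrate for fatty acid synthesis, was at 33.1 and 22.0 RPKM and short of 2-fold (1.92-fold lower, 1.79 to 2.06), and moved from place 13 to place 6.

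Of the aspartate and glutamate carriers, Slc25a13 (citrin) was at 53.5 and 26.8 RPKM, 2.55-fold lower (2.44 to 2.67), and Slc25a12 (aralar) at 23.1 and 5.73 RPKM, 5.14-fold lower (4.69 to 5.65). Both exchange mitochondrial aspartate for cytosolic glutamate in the malate-aspartate shuttle, which carries reducing equivalents into the matrix. With plain CPM and with RPKM plus 0.1, Slc25a13 had log2 ratios of -0.80 and -0.997 and was short of 2-fold. Slc25a22, a carrier of glutamate with protons, had 269 and 285 reads and a log2 ratio of 0.02, and its interval spanned equality. Its relative Slc25a18 had 0 and 9 reads and was not measured.

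Carriers of other amino acids and of acylcarnitines were lower in 4 of 5 measured members. Slc25a15 (chromosome 8, 22375550 to 22398621), the ornithine and citrulline exchanger of the urea cycle, was at 49.8 and 9.33 RPKM, 6.82-fold lower (6.39 to 7.28), whereas its intronless relative Slc25a2 had 7 and 9 reads and was not measured. Slc25a20, which takes acylcarnitines in for fatty acid oxidation, was at 31.6 and 9.62 RPKM, 4.20-fold lower (3.83 to 4.61). Slc25a44, a carrier of branched-chain amino acids, was 2.98-fold lower (2.71 to 3.29), and Slc25a29, a carrier of basic amino acids with 82 and 29 reads, 2.96-fold lower (1.92 to 4.70). Slc25a38, the glycine carrier that feeds haem synthesis, was at 11.4 and 9.71 RPKM and 1.49-fold lower (1.33 to 1.68), short of the threshold.

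Among the 9 carriers of nucleotides and cofactors 5 were lower, 0 higher and 4 neither. Slc25a42 (chromosome 8, 70184340 to 70212281), the coenzyme A carrier, had 1501 and 54 reads, from 11.7 to 0.515 RPKM, and was 29.1-fold lower (22.2 to 39.0). Slc25a16, also linked to coenzyme A, was at 30.4 and 3.12 RPKM, 12.4-fold lower (11.1 to 14.0). Slc25a51, the NAD carrier, was 4.71-fold lower (4.45 to 4.99) and Slc25a17, the peroxisomal cofactor carrier, 3.29-fold (3.07 to 3.54). Their levels were 36.3 and 47.0 RPKM in the normal and 9.86 and 18.2 RPKM in the tumour library.

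The 4 that were neither bring in the substrates of methylation, folate chemistry and mitochondrial nucleic acid synthesis. Slc25a26, the carrier of S-adenosylmethionine, was at 4.19 and 2.95 RPKM (log2 ratio -0.86), Slc25a32, the folate and FAD carrier, at 4.56 and 3.40 RPKM (-0.78), and Slc25a36, a carrier of pyrimidine nucleotides, at 19.0 and 13.5 RPKM (-0.85). Slc25a33, the other pyrimidine nucleotide carrier, was on the other side of 0, at 3.82 and 6.26 RPKM with a log2 ratio of 0.36 and an interval above no difference (1.10 to 1.50) that did not reach 2-fold. For Slc25a36, 7.51% of its 50-base stretches occur in the transcript of another gene.

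Glutathione and iron carriers were lower in 2 of 4. Slc25a39 (chromosome 11, 102402976 to 102407517), which imports glutathione, was the fourth most abundant member in both libraries, at 183 and 50.4 RPKM, and was 4.63-fold lower (4.44 to 4.82). Its paralogue Slc25a40 was at 3.58 and 5.35 RPKM with a log2 ratio of 0.23, short of 2-fold. The mitoferrins, which take iron into the matrix for haem and iron-sulphur clusters, differed little from each other. Slc25a28, the widely made form, was 2.16-fold lower (1.91 to 2.44) but missed the threshold under other scalings (log2 ratios of -0.55 by plain CPM, -0.76 by header totals and -0.75 by RPKM plus 0.1), and Slc25a37, the form of red cell precursors, was 1.73-fold lower (1.54 to 1.94). The red cell gene Alas2 was at 4.75 and 2.25 RPKM and Slc4a1 at 5.09 and 0.186 RPKM, and their part in the Slc25a37 value was not tested. Of the 50-base stretches of Slc25a37 and of Slc25a40, 10.1% and 9.94% occur in transcripts of other genes.

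Of the 8 measured outer membrane members and members with a less defined substrate 4 were lower, 1 higher and 3 neither. Slc25a34 (chromosome 4, 141618825 to 141623834) had 1301 and 31 reads, from 12.0 to 0.349 RPKM, and was 44.0-fold lower (30.8 to 65.0). This was the largest estimate on the lower side among all measured members. Its interval overlapped those of Slc25a21 (20.4 to 53.9), Slc25a42 (22.2 to 39.0) and Slc25a48, so the order is not settled. Slc25a48 (chromosome 13, 56438355 to 56472363), a choline carrier, had 248 and 11 reads and was 23.6-fold lower (13.0 to 48.0), Slc25a45 had 1136 and 66 reads and was 18.0-fold lower (14.1 to 23.5), and Slc25a35 had 238 and 18 reads and was 13.9-fold lower (8.58 to 23.8). In GENCODE M21, 31.3% of the exon bases of Slc25a35 lie opposite exons of Rangrf (14.9% for Slc25a33, opposite Gm13068, and less for the other members), and the labels and headers give no strand setting for the counting. Slc25a46, an outer membrane protein of mitochondrial shape, was at 11.7 and 7.96 RPKM and 1.88-fold lower (1.75 to 2.03), short of 2-fold.

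The remaining low members lay on the other side. Slc25a53 had 8 and 21 reads and was 2.504-fold higher (1.07 to 6.54), a call from few reads that was short of 2-fold with RPKM plus 0.1 (log2 ratio 0.97). Slc25a43 had 15 and 31 reads (1.97-fold higher, 1.03 to 3.93) and Slc25a47, a liver carrier, 21 and 41 reads (1.86-fold, 1.08 to 3.32). Both were short of 2-fold with TMM and passed it with plain CPM (log2 ratios of 1.54 and 1.45), header totals (1.33 and 1.25) and RPKM plus 0.1 (1.10 and 1.04). Slc25a54 had 0 reads in both libraries.

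The summed level of the members was 1815 RPKM in the normal and 689 RPKM in the tumour library. Slc25a5, Slc25a3 and Slc25a4 with Slc25a31 made up 50.9% of it in normal kidney and 56.5% in the tumour, and Slc25a5 alone 24.9% and 24.8%. Slc25a10 was at 3.62% and 0.579%, and Slc25a39 at 10.1% and 7.31%. Among the shares that were larger in the tumour library were those of Slc25a3 (14.0% and 17.7%), Slc25a4 (12.0% and 13.8%), Ucp2 (0.755% and 2.39%), Slc25a1 (1.82% and 3.19%) and Slc25a13 (2.95% and 3.88%). Slc25a34 was at 0.663% and 0.0507%. In the normal library 26 members stood above 10 RPKM, and in the tumour library 10 did.

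**Figure D3:**
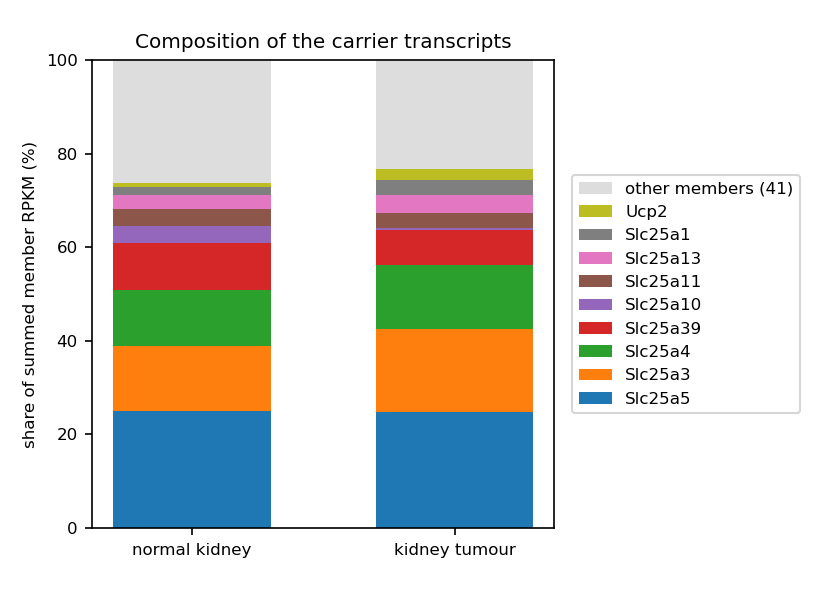
Share of the summed RPKM of all 50 carriers (vertical axis, percent) in each library, for 9 members and for the other 41 together. Slc25a5 holds 24.9% and 24.8%, while the band of Slc25a10 narrows from 3.62% to 0.579%.

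The balance between related carriers can be read without any library scaling, as the odds ratio of their reads. Of 11 pairs chosen for shared substrates, 9 had both genes measured. The widest shifts were towards Slc25a24, 28.9-fold relative to Slc25a25 (23.4 to 35.8) and 14.4-fold relative to Slc25a23 (11.3 to 18.5). Slc25a40 gained 5.41-fold on Slc25a39 (4.70 to 6.23), although Slc25a39 remained 9.42 times higher per length, down from 50.9 times. Slc25a11 gained 5.40-fold on Slc25a10 (4.85 to 6.02), from equal RPKM (a ratio of Slc25a10 to Slc25a11 of 1.01) to a ratio of 0.188.

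The other 5 pairs shifted by less than 2.5-fold. Slc25a16 gained 2.34-fold on Slc25a42 (1.74 to 3.21), Slc25a33 2.30-fold on Slc25a36 (1.94 to 2.73) and Slc25a13 2.01-fold on Slc25a12 (1.82 to 2.23). Slc25a37 gained 1.25-fold on Slc25a28 (1.05 to 1.48) and Slc25a4 1.15-fold on Slc25a5 (1.09 to 1.20). The order within a pair by RPKM turned over for Slc25a23 over Slc25a24, from 7.08 to 0.490, and for Slc25a10 over Slc25a11, which had been level.

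**Figure D4:**
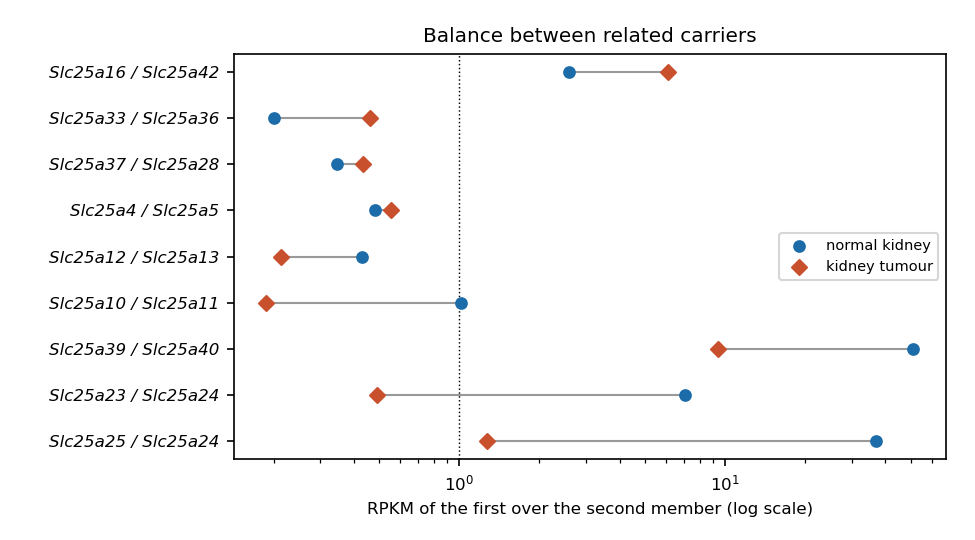
RPKM of the first over the second member (horizontal log axis) for the 9 related pairs with both genes measured, in the normal kidney (circles) and kidney tumour (diamonds), 1 library each. Slc25a23 over Slc25a24 crosses the dotted line of equal levels, from 7.08 to 0.490.

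Partner genes of the carriers were read from 12 lists, against the same background of 28.0% lower and 31.2% higher. Genes of ATP synthase, the enzyme served by the ADP/ATP and phosphate carriers, were lower in 15 of 17. Their median log2 ratio was -1.61, with a range of -2.13 to -0.01. With plain CPM 11 of the 17 were lower, with a median of -1.05. The largest differences were those of Atp5g3, 4.37-fold lower (4.20 to 4.54), and Atp5l, with 58 and 16 reads. Of the 44 members 19 lay inside the full TMM range of -2.13 to -0.01, 16 below it and 9 above it. The 2 genes of the list that were neither set its upper end, and the 15 lower ones ran from -2.13 to -1.30. Slc25a4, Slc25a5 and Slc25a3, at -1.55, -1.75 and -1.41, lay inside this narrower span too, but others of the 19 did not.

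Partners in single pathways spread further. The mitochondrial pyruvate carrier, which belongs to another family, had both subunits far lower, Mpc1 at 89.99 and 2.31 RPKM (49.8-fold, 39.3 to 64.2) and Mpc2 at 195 and 7.21 RPKM (34.5-fold, 30.0 to 39.9). Of the carnitine shuttle, 5 of 6 were lower. Slc22a5, the plasma membrane carnitine transporter, was 30.2-fold lower (27.0 to 33.9), Cpt1a, the gatekeeper of the shuttle, 15.4-fold, Crat 11.2-fold, Cpt2 9.72-fold and Cpt1b 5.19-fold. Cpt1c, the brain form, had 39 and 440 reads and was 10.8-fold higher (7.75 to 15.3). Slc25a20, which moves the acylcarnitines between Cpt1 and Cpt2, was 4.20-fold lower, with an interval (3.83 to 4.61) that overlapped that of Cpt1b (4.47 to 6.05) and lay below those of the other 4.

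In the malate-aspartate shuttle the cytosolic Mdh1 was at 524 and 65.1 RPKM, 10.3-fold lower (9.96 to 10.6), and Got2 2.17-fold (2.07 to 2.28), the latter short of 2-fold with plain CPM and header totals. Mdh2 and Got1 were neither, with log2 ratios of -0.99 and -0.79. Haem and iron-sulphur genes were lower in 14 of 18 and higher in 0, led by Alas1, the first enzyme of haem synthesis, at 11.1-fold (10.3 to 12.0), and by Fech, the last, at 7.74-fold (7.11 to 8.45). With plain CPM 9 of the 18 were lower. A list set around citrate also held genes that do not use it, such as a malic enzyme and the citrate synthase. In this list the malic enzyme Me1 was 13.3-fold lower (12.2 to 14.6) and Aco1 7.86-fold (7.53 to 8.22). The fatty acid synthase Fasn was 2.01-fold higher (1.94 to 2.08), and Acaca, which makes malonyl-CoA, had a log2 ratio of 0.51. In the whole list 3 of 6 were lower and 1 higher, and with plain CPM 2 and 2.

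Mitochondrial folate genes, beside the folate carrier Slc25a32, were higher in 3 and lower in 2 of 9. Mthfd1l and Mthfd2, which act on formate and methylene-folate in the matrix, were 22.5-fold (18.9 to 27.0) and 6.26-fold (5.27 to 7.48) higher, while Shmt2 was 2.88-fold (2.73 to 3.03) and Amt 2.18-fold (2.03 to 2.35) lower; with plain CPM 0 of 9 were lower. Enzymes of ornithine and glutamate, beside Slc25a15 and Slc25a22, were higher in 3 and lower in 4 of 8, and with plain CPM in 3 and 3. Pycr1, of proline synthesis, had 1 and 103 reads (98.3-fold higher, 17.2 to 3918) and the glutaminase Gls2 5 and 323 reads (61.6-fold, 26.1 to 191). Prodh, of proline breakdown, was 25.7-fold lower (23.4 to 28.2).

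The machinery that imports carrier proteins stood close to the median of all genes. Of 15 measured genes, 1 was lower and 0 were higher, with a median log2 ratio of 0.09. The small chaperone Timm9 was 2.09-fold lower (1.87 to 2.35) and Timm8b had a log2 ratio of -0.78, while Tomm70a, the receptor for carrier precursors, and the channel Tomm40 had ratios of 0.77 and 0.74. With plain CPM 3 of the 15 were higher and 0 lower. Of 6 measured outer membrane channels and carrier-like proteins 2 were lower, Tspo at 3.96-fold (3.59 to 4.36) and Vdac1, the main channel for ATP and metabolites, at 2.89-fold (2.81 to 2.98). With plain CPM 1 of the 6 was lower.

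Genes of mitochondrial fusion and fission were lower in 5 of 10 and higher in 0, and 2 of 10 were lower with plain CPM. Lower by 7.27-fold (6.70 to 7.91) was the fusion protein Mfn2 and by 3.17-fold (2.96 to 3.39) its relative Mfn1, and Oma1, Opa1 and the fission protein Fis1, named to complete the count after their values were seen, were 2.24-fold, 2.17-fold and 2.13-fold lower. The fission proteins Dnm1l and Mief1 had log2 ratios of 0.40 and 0.16. Regulators of mitochondrial genes were split, with 5 of 12 lower and 5 higher. Among the higher ones was Myc, named here because c-Myc is a factor that doxycycline switches on in the tumour animal. Ppargc1a, the coactivator of mitochondrial biogenesis, was 52.2-fold lower (40.0 to 69.5) and the fatty acid receptor Ppara 34.0-fold (29.6 to 39.2), while Mycn was 38.0-fold higher (28.8 to 51.3) and Pprc1, a coactivator of proliferating cells, 10.02-fold (8.84 to 11.4). These lists were set beside the carriers as a description, and their part in the carrier values was not tested.

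**Figure D5:**
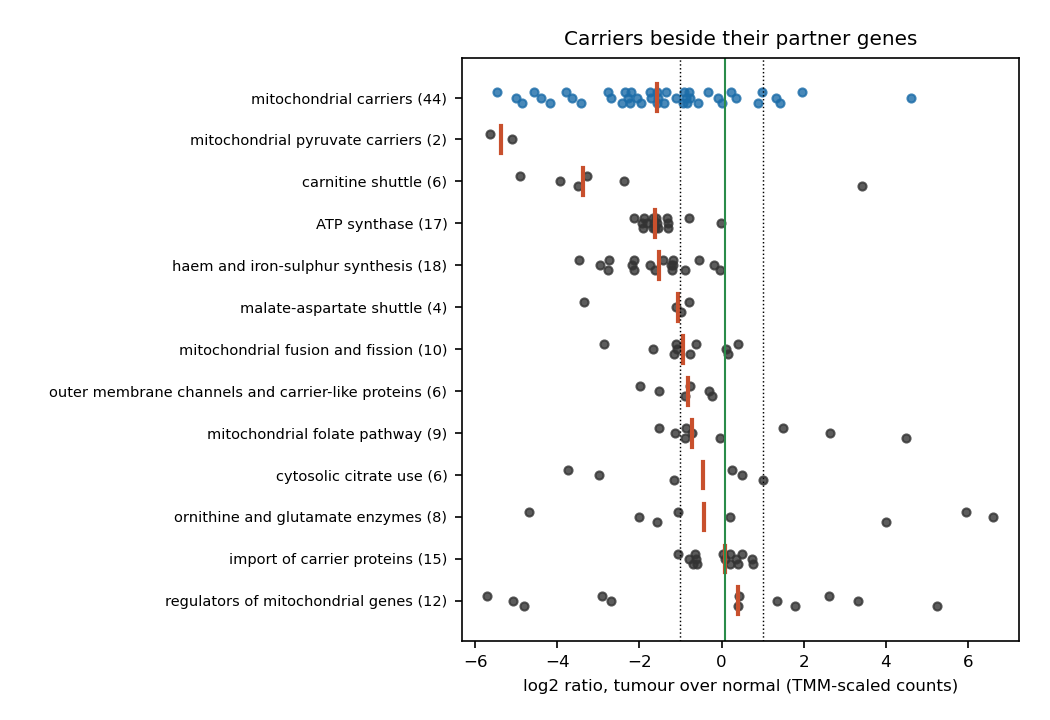
Log2 of tumour over normal TMM-scaled counts (horizontal axis), for the carriers and 12 lists of partner genes, with the number of measured genes in brackets; each point is a gene, the red bar is the list's median, dotted lines mark 2-fold and the green line is the median of all measured genes at 0.08. ATP synthase genes cluster around -1.61, near the carriers' median of -1.56, whereas the carriers run from -5.46 to 4.60.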

How the data were processed

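Total RNA of 1 normal kidney and 1 kidney tumour was freed of ribosomal RNA, and libraries that keep the strand were made, per the labels' protocols. Whole-number read counts over exons of 32958 UCSC knownCanonical models were used as deposited by the authors (totals of 40408775 and 33169818 reads per the file headers, of which 29258428 and 20836819 were counted over exons). RPKM values were also deposited and are scaled by the header totals. Tools in the submitters' processing notes are STAR 2.5.0c, HOMER and bcl2fastq and the build is mm10. The counting's strand setting and its treatment of reads with several matches were not given in the sources used here.

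TMM factors (edgeR 4.0.16, R 4.3.3) of 0.824 and 1.21 were fitted on all 16326 genes with at least 20 reads over both libraries. Ratios carry exact conditional 95% intervals for counting error alone, and PCR copies cannot be separated from molecules. Calls and intervals were run on simulated counts with counting error alone and few changed genes. In the real pair 59.2% of measured genes were called, so the simulation does not test the scaling in that setting. The text names members with at least 20 reads, and of each partner list the 2 largest ratios per direction with a mean of at least 1 CPM, with 3 short lists in full. Of the genes this rule takes, 1 member and 1 partner are counted in the totals but not reported here by name. Of 119 list entries, 2 were not found under the symbol used. The members and lists were chosen with earlier results of these data known. Other software was Python 3.11.15, numpy 2.4.6, pandas 2.3.3, scipy 1.17.1 and matplotlib 3.10.9. Promoters come from RefSeq on GRCm38.p6 and transcripts from GENCODE M21, of the same assembly. Alternatives were DESeq2 1.42.0 size factors, plain CPM, header totals, RPKM plus 0.1, no filter, at least 100 reads, summed models, and TMM without mitochondrial models and Rn45s.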

Additional observations from a re-analysis of the deposited data

How the results depend on the processing

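No paired analysis was possible because each group holds 1 library, and no library could be left out for the same reason. Under the 8 alternatives, 35 of 44 members kept their direction and their side of the 2-fold threshold in each setting that measured them (41 were measured with at least 100 reads). The number of lower members ran from 22 to 26 and of higher members from 3 to 6. The median log2 ratio of the members, -1.56, became -1.004 by plain CPM, -1.21 by header totals, -1.13 by RPKM plus 0.1 and -1.39 if no filter was used. The median of all measured genes moved from 0.08 to 0.64, 0.44 and 0.40 in the first 3 of these. The members' median relative to it was -1.65 by TMM, plain CPM or header totals, -1.53 with RPKM plus 0.1 and -1.43 without the filter. The equal value under TMM, plain CPM and header totals was fixed in advance. A change of library scaling shifts every log2 ratio by the same amount, so it is no check of the result. Of all genes called 52.8% were higher by TMM, 67.6% by plain CPM, 62.5% by header totals and 62.6% by RPKM plus 0.1, and among the members' calls 13.3%, 21.4%, 19.4% and 17.2%. The sign turned for Ucp2, to 0.47, 0.26 and 0.26 with plain CPM, header totals and RPKM plus 0.1, and for Slc25a14, to 0.22, 0.014 and 0.013, neither of them called. Members with few reads, Slc25a53, Slc25a43, Slc25a47 and Slc25a31, are limited by depth.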

Other observations

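Among the 50 carriers, 5 pairs are neighbours on a chromosome with less than 100 kb between the gene models, and 3 of these pairs had a member without enough reads to be measured. On chromosome X, Slc25a43 and Slc25a5 lie 18344 bases apart on the plus strand, with log2 ratios of 0.98 (15 and 31 reads) and -1.75 (22551 and 7008 reads). On chromosome 12, Slc25a29 and Slc25a47 lie 15252 bases apart on opposite strands, with -1.57 and 0.90. On chromosome 3, Slc25a54 had 0 reads in both libraries, 6566 bases from Slc25a24 with 148 and 419 reads. On chromosome 7, Ucp3 had 1 and 2 reads, 6925 bases from Ucp2 with 868 and 855 reads. On chromosome 17, Slc25a41 had 0 and 5 reads, 2056 bases from Slc25a23 with 1041 and 204 reads. In the latter 3 pairs a carrier near 0 stands next to an expressed paralogue on the same strand in both libraries.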
